A study of Mus musculus with 24 samples.

Results

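The comparison described here was that of selenium-deficient (SeD) with selenium-sufficient (SeS) mouse pups held in hyperoxia (O2) until postnatal day 1 (PN1). Its members were chosen by sample title, and they were 3 SeD O2 PN1 libraries and 3 SeS O2 PN1 libraries of the 24 libraries in the series. Of the 57010 genes counted, 23831 were tested, and the description keeps to the 12591 with a mean of at least 5 CPM (counts scaled by library total and TMM factor) over the 6 libraries unless a lower level is stated. The genes called were 3 selenoprotein genes, *Selenow*, *Gpx1* and *Selenoh*, 0.0126% of those tested, and each was lower in SeD lungs.

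The series formed 8 groups of 3 whole-lung libraries by diet, gas and age, in C3H/HeN mice, and asked how a shortage of selenium around birth alters the newborn lung under high oxygen. SeD O2 PN1 pups came from parents fed under 0.01 ppm sodium selenite and breathed oxygen at an FiO2 of 0.85. SeS O2 PN1 pups breathed the same gas and came from parents fed 0.4 ppm. The SeD RA PN1 and SeS RA PN1 groups had the same diets in room air (RA) at an FiO2 of 0.21, and the PN3 groups were sampled at postnatal day 3 in both gases. The diets were given to the parents from weaning on, so the deficiency of a pup was acquired through its mother, and the dams were rotated between the gases while the pups stayed. The lungs were perfused with cold saline before RNA extraction, and every value is of whole lung. Which pups shared a litter is not given in the sources used here, so the p-values measure the spread between these libraries only. SeS O2 PN1 replicate 2 carries a title of hyperoxia and an oxygen level of 0.21 and was placed by its title.

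Libraries are named below by diet and replicate number, and unless a group is given they are those of O2 at PN1. The deposited counts summed to 31356795, 32026321 and 50437601 reads in SeD replicates 1, 2 and 3, against 36121040, 32285521 and 27715912 reads in SeS replicates 1, 2 and 3. Markers of the lung itself were at like levels, with 12 alveolar type 2 markers summing to 23166, 22154 and 26037 CPM in SeD, against 21782, 25640 and 21670 CPM in SeS. The libraries of SeD stood apart from each other. The 17 liver markers tested, of 18 listed, summed to 12025, 7530 and 633 CPM in SeD, against 291, 245 and 331 CPM in SeS, so SeD replicates 1 and 2 carried most of the liver transcripts. Heart markers summed to 2776 CPM in SeD replicate 1, and in the other 5 libraries they lay between 432 and 745 CPM. Skeletal muscle markers were highest in SeS replicate 3, at 490 CPM, and thymus markers too, at 31.7 CPM. Keratins of squamous epithelium were high in SeD replicate 3 only, as given below. Both diets held libraries with and without the Y-linked *Ddx3y*, which was at 0, 110 and 0 CPM in SeD, against 144, 0 and 139 CPM in SeS. In whole lung, fewer cells of a type and less RNA per cell cannot be told apart.

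**Figure D1:**
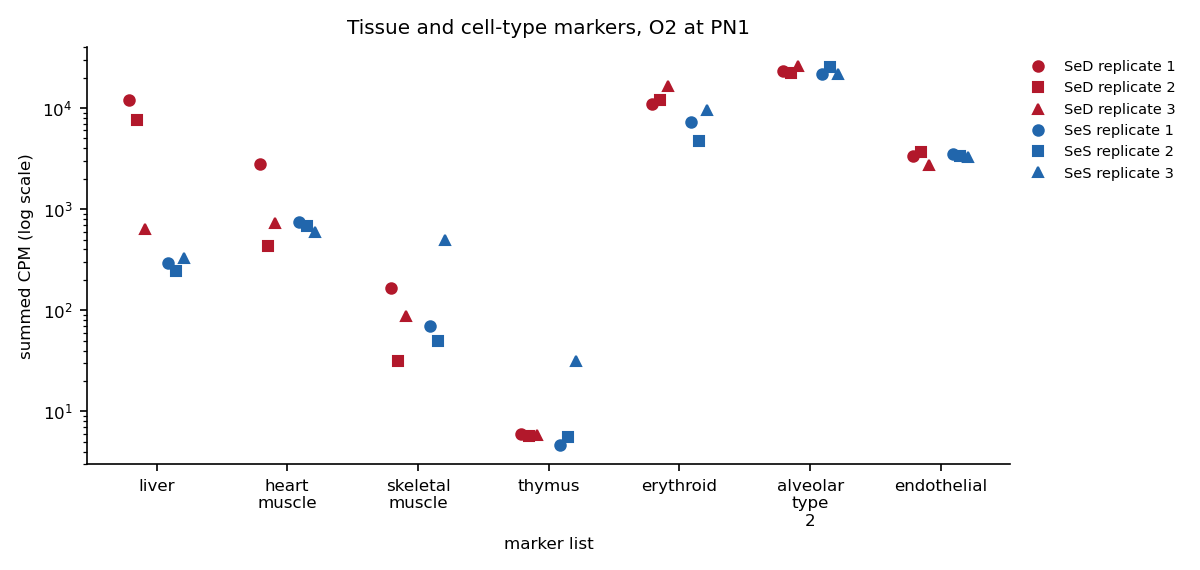
Summed CPM of 7 marker lists (log axis) in each of the 6 libraries, SeD in red and SeS in blue, with a symbol for each replicate number. Liver markers reached 12025 and 7530 CPM in SeD replicates 1 and 2, while alveolar type 2 and endothelial markers lay within a narrow band in all 6.

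Selenium acts in mammals mostly as selenocysteine, an amino acid built on its own tRNA and inserted at a UGA codon that would otherwise stop translation. A hairpin in the mRNA, the binding protein Secisbp2 and a dedicated elongation factor carry out this recoding. When selenium is short, the proteins of the family are known to be lost in a ranked order, and the mRNAs of some members fall as well. The family includes glutathione peroxidases and thioredoxin reductases, which remove peroxides and keep thiols reduced, and these enzymes are of interest in the newborn lung because oxygen therapy loads it with oxidants.

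The selenocysteine codon is what the called genes share with the rest of the family, and its surroundings are shown for the called genes and for 4 related ones. Each line gives the coding strand from 5′ to 3′ in the canonical transcript (GENCODE annotation of GRCm39), with the selenocysteine codon in capitals and 30 coding bases on each side.
Selenow: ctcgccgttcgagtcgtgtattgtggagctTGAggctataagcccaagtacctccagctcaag
Gpx1: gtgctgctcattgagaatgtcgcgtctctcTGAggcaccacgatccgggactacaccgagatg
Selenoh: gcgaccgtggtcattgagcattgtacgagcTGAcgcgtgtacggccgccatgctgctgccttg
Gpx3: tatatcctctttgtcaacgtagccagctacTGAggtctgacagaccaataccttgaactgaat
Selenom: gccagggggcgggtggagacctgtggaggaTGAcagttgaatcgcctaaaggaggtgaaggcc
Gpx4: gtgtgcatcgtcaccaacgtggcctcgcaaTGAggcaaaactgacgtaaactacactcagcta
Gpx2: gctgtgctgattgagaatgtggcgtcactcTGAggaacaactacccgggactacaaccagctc
The codon of *Selenow* lies at chr7:15654389-15654391 on the minus strand, as codon 13 of 88 and in exon 2 of 6. That of *Gpx1* lies at chr9:108216650-108216652 on the plus strand, as codon 47 of 201 and in exon 1 of 2. That of *Selenoh* lies at chr2:84500725-84500727 on the minus strand, as codon 38 of 116 and in exon 2 of 3. *Gpx1*, *Gpx2*, *Gpx3* and *Gpx4* encode 4 glutathione peroxidases with the codon in the active site, and their mRNAs did not move alike.

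*Selenow*, *Gpx1* and *Selenoh* fell in SeD lungs, and no library of one diet overlapped with the other. *Selenow* (ENSMUSG00000041571), which encodes a small thioredoxin-like protein, was at 49.0, 42.9 and 39.5 CPM in SeD, against 141, 143 and 142 CPM in SeS. This was a log2 fold change of -1.70 (SE 0.126), 3.24-fold lower in SeD, with an adjusted p of 4.18e-07 by edgeR's quasi-likelihood F-test with Benjamini-Hochberg adjustment over all genes tested. The 3 SeS libraries lay within a few CPM of each other, and the spread among SeD libraries was small beside the gap between the diets. *Gpx1* (ENSMUSG00000063856), the cytosolic glutathione peroxidase and the most abundant of the 3 transcripts by CPM, was at 132, 126 and 150 CPM in SeD, against 360, 374 and 417 CPM in SeS. Its log2 fold change was -1.50 (SE 0.181, adjusted p = 0.000564, edgeR). *Selenoh* (ENSMUSG00000076437), which encodes a nuclear oxidoreductase, was at 12.6, 12.7 and 14.3 CPM in SeD, against 35.8, 36.9 and 33.2 CPM in SeS. Its log2 fold change was -1.42 (SE 0.170, adjusted p = 0.000564, edgeR). The 3 genes were among 22 selenoprotein genes tested. Without SeD replicates 1 and 2 together, which leaves 1 SeD library whose spread is assumed to be that of the other groups, *Selenow* stayed called, and the adjusted p was 0.0770 for *Gpx1* and 0.0662 for *Selenoh*, at log2 fold changes of -1.32 and -1.27. These were the highest adjusted p of the 2 genes over 20 alternatives, and the lowest were 1.55e-11 and 6.80e-15.

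**Figure D2:**
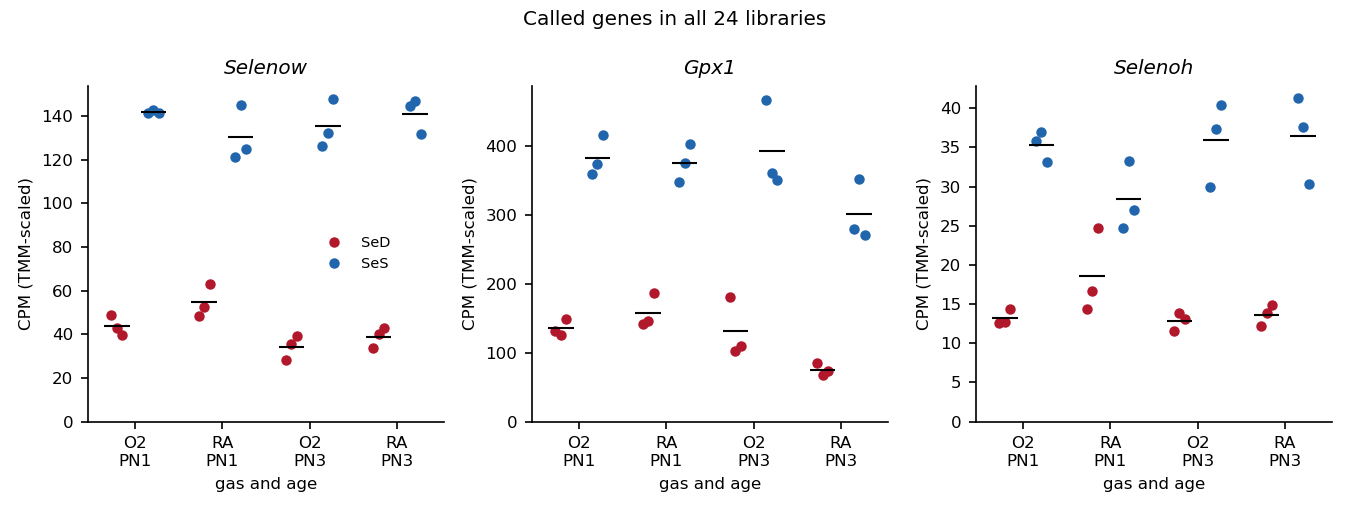
CPM of *Selenow*, *Gpx1* and *Selenoh* in all 24 libraries, by gas and age, with SeD in red left of SeS in blue and a line at each group mean of 3 libraries. In O2 at PN1 the SeD libraries of *Selenow* lie at 39.5 to 49.0 CPM and the SeS libraries at 141 to 143 CPM.

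The same 3 genes were lower in SeD in the other gas and at the other age. In RA at PN1 *Selenow* was at 48.5, 52.7 and 62.9 CPM in SeD, against 121, 145 and 125 CPM in SeS, a log2 fold change of -1.25 (SE 0.1248). *Gpx1* was at 141, 147 and 187 CPM in SeD RA PN1, against 348, 375 and 403 CPM in SeS RA PN1, also -1.25. The groups of *Selenoh* came close to touching in RA, at 14.4, 16.7 and 24.7 CPM in SeD, against 24.8, 33.3 and 27.1 CPM in SeS, a log2 fold change of -0.61. The diet difference of *Selenoh* was thus -0.81 (SE 0.237) further down in O2 than in RA on the log2 scale, with an unadjusted p of 0.00272 and an adjusted p of 0.0973 in edgeR, short of the threshold. For *Selenow* this difference of differences was -0.45 (adjusted p = 0.173, edgeR) and for *Gpx1* it was -0.25 (unadjusted p = 0.331, edgeR). At PN3 in O2 the log2 fold changes of *Selenow*, *Gpx1* and *Selenoh* were -1.98, -1.58 and -1.48, and at PN3 in RA they were -1.86, -1.99 and -1.42. These comparisons at PN3 use other libraries than those at PN1.

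Below the 3 called genes, 5 further selenoprotein genes had every SeD library under every SeS library without passing the test. *Gpx3*, the glutathione peroxidase secreted into plasma, was at 103, 67.8 and 57.3 CPM in SeD, against 125, 122 and 114 CPM in SeS, a log2 fold change of -0.66 (SE 0.191, unadjusted p = 0.00258, adjusted p = 0.989, edgeR). SeD replicate 1 lay near the SeS libraries and the other 2 well under them. *Selenom*, a thioredoxin-like protein of the endoplasmic reticulum, was at 15.5, 11.9 and 15.3 CPM in SeD, against 23.9, 22.96 and 19.2 CPM in SeS (-0.63, SE 0.175). *Selenon*, a reductase of the same compartment known from muscle disease, was at 51.2, 50.4 and 41.8 CPM in SeD, against 65.7, 61.3 and 57.6 CPM in SeS (-0.37, SE 0.149). *Txnrd3*, a thioredoxin-glutathione reductase best known from testis, was at 21.8, 22.8 and 23.7 CPM in SeD, against 28.4, 29.5 and 30.1 CPM in SeS (-0.36, SE 0.144). *Txnrd1*, the cytosolic thioredoxin reductase, was at 93.8, 102 and 102 CPM in SeD, against 123, 105 and 103 CPM in SeS (-0.15, SE 0.0909), a separation of about 1 CPM at its closest. Of the 20 selenoprotein genes with at least 5 CPM, 8 had all SeD libraries below all SeS libraries, against 9.95% of the 12591 genes. Of the 22 tested, 7 had an unadjusted p under 0.05 and a lower value in SeD, against 2.02% of all genes tested. Limma with quality weights called *Selenom* and *Txnrd3* too, at adjusted p of 0.0289 and 0.0446. Its weights were 1.54, 1.49 and 0.2775 for SeD replicates 1, 2 and 3, and 1.15, 1.29 and 1.65 for SeS.

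In 3 of the 20 selenoprotein genes, in contrast, the libraries lay the other way, with every SeD library above every SeS library, against 5.44% of the 12591 genes, and none of them passed the test. *Sephs2*, which makes the selenium donor for selenocysteine and is itself a selenoprotein, was at 70.8, 58.7 and 55.7 CPM in SeD, against 35.9, 34.5 and 36.8 CPM in SeS. Its log2 fold change of 0.79 had a wide SE of 0.408 (unadjusted p = 0.0677, adjusted p = 1.00, edgeR). The SE comes from the fit of all 24 libraries, in which SeD O2 PN3 replicate 1 was at 343 CPM. In a fit of the 12 PN1 libraries alone *Sephs2* was called, at an adjusted p of 0.00630, the lowest over its alternatives, which reached 1.00. *Txnrd2*, the mitochondrial thioredoxin reductase, was at 18.9, 16.3 and 15.1 CPM in SeD, against 12.8, 12.3 and 11.5 CPM in SeS (0.46, SE 0.194). *Selenoo*, a mitochondrial pseudokinase, was at 27.9, 26.6 and 23.2 CPM in SeD, against 20.98, 21.01 and 21.4 CPM in SeS (0.29, SE 0.132). In all 3 genes SeD replicate 1, the library with the most liver transcripts, was the highest of the SeD libraries. SeD replicate 3 was the lowest. In RA at PN1 the liver markers summed to 226, 177 and 204 CPM in SeD, against 1105, 356 and 263 CPM in SeS. There *Sephs2* was at 46.9, 42.97 and 53.1 CPM in SeD, against 37.8, 35.8 and 36.9 CPM in SeS. *Selenoo* was at 22.5, 21.7 and 26.2 CPM in SeD, against 21.02, 20.5 and 20.9 CPM in SeS. Their log2 fold changes in RA were 0.37 (SE 0.407) and 0.17 (SE 0.132), and *Txnrd2* overlapped between the diets. The part of liver RNA in the O2 values was not tested. Limma with quality weights called *Sephs2*, *Txnrd2* and *Selenoo* at 0.0292, 0.0306 and 0.0289. In that fit SeD replicate 3 had a weight of 0.2775, against 1.54 and 1.49 for SeD replicates 1 and 2, which are rich in liver transcripts. Without SeS replicate 3 none of the selenoproteins had an unadjusted p under 0.05 with a higher value. With that library 2 of 22 had, against 2.87% of all genes tested, and 2 had without SeD replicate 3.

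In the remaining selenoprotein genes the libraries of the diets overlapped. *Gpx4*, which reduces lipid peroxides in membranes, was at 376, 336 and 489 CPM in SeD, against 343, 397 and 335 CPM in SeS (log2 fold change 0.16, SE 0.145). *Gpx2*, the peroxidase of epithelia, was at 20.2, 20.2 and 40.7 CPM in SeD, against 18.3, 22.9 and 18.4 CPM in SeS (0.45, SE 0.280), with SeD replicate 3 alone standing high. *Selenop*, which carries selenium in plasma and is made mostly in liver, was at 673, 573 and 515 CPM in SeD, against 648, 752 and 705 CPM in SeS (-0.26, SE 0.463). SeD O2 PN3 replicate 1, which enters that SE, was at 2750 CPM. *Selenof*, *Selenok*, *Selenos* and *Selenot*, proteins of the endoplasmic reticulum, had log2 fold changes of -0.19, -0.25, 0.09 and -0.20. Of these, *Selenok* and *Selenot* were called by limma with quality weights, at -0.39 and -0.31 and adjusted p of 0.0459 and 0.0394. *Selenoi*, an enzyme of phospholipid synthesis, was at 0.01 and *Msrb1*, which repairs oxidized methionine, at -0.07. The deiodinases *Dio1* and *Dio2* were under 2 CPM in every library, at log2 fold changes of 0.19 and 0.09, and *Dio3* and *Selenov* had too few counts to be tested. Over the 22 genes tested the median log2 fold change was -0.17, against 0.02 over all genes tested. Without SeD replicates 1 and 2 the median turned to 0.09.

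**Figure D3:**
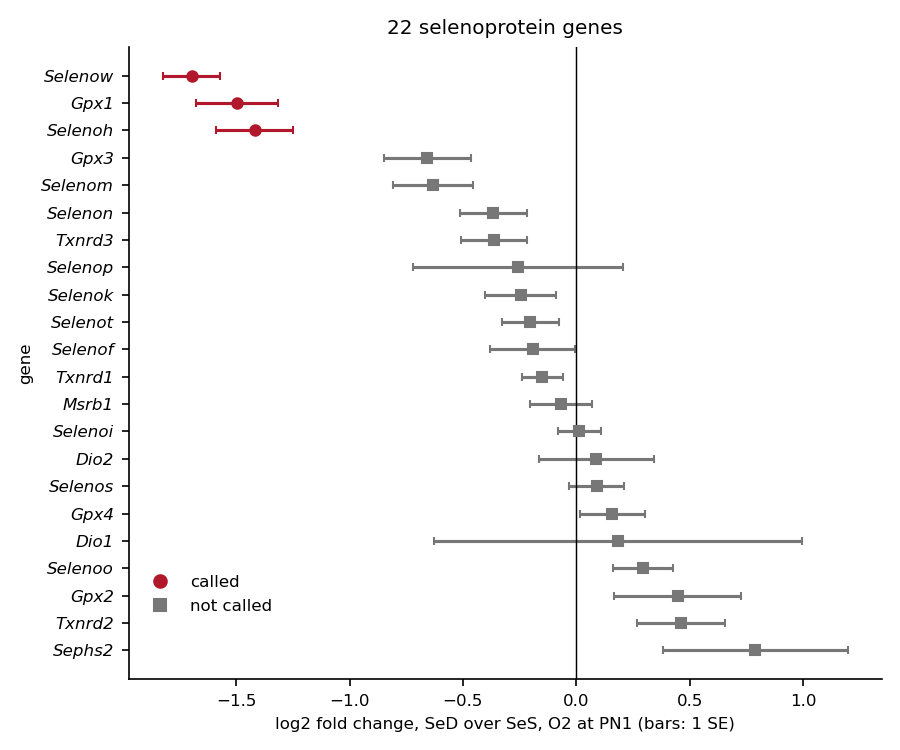
Log2 fold change of SeD over SeS in O2 at PN1 for the 22 selenoprotein genes tested, with bars of 1 SE. The 3 called genes lie between -1.70 and -1.42, apart from *Gpx3* at -0.66 and *Selenom* at -0.63, and *Sephs2* is the highest at 0.79.

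Where the codon sits in its transcript was compared with the values as a description. An in-frame stop well before the last exon junction is the feature that nonsense-mediated decay reads in other mRNAs. In 13 of the 22 genes tested the selenocysteine codon lay more than 50 bases before the last junction, and the log2 fold changes of these ran from -1.70 to 0.46 with a median of -0.26. In the other 9 it lay nearer or in the last exon, and they ran from -0.36 to 0.79 with a median of 0.01. The distances of the called genes were 243 bases in *Selenow*, 105 in *Gpx1* and 136 in *Selenoh*. *Gpx2* at 102 bases and *Gpx4* at 342 had log2 fold changes of 0.45 and 0.16. Every SeD library lay below SeS in 6 of the 13 genes and in 2 of the other 9, and above SeS in 1 and 2. Over the 12591 genes with at least 5 CPM the shares were 9.95% below and 5.44% above. For *Selenop*, which has 10 such codons, the place is that of the first. The part of the codon's place in these values was not tested.

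The genes that build and insert selenocysteine were close to level. None of 11 tested had an unadjusted p under 0.05, and their median log2 fold change was 0.07. *Lrp2*, a receptor that takes up Selenop, was at 65.3, 89.3 and 90.9 CPM in SeD, against 60.3, 61.6 and 49.3 CPM in SeS (0.52, SE 0.275, unadjusted p = 0.0733). *Secisbp2*, the binding protein of the recoding hairpin, differed by 0.13 (SE 0.09998), *Eefsec*, the elongation factor, by 0.18 (SE 0.192) and *Sephs1*, a paralogue of *Sephs2* that lacks selenocysteine, by -0.14 (SE 0.112).

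Over the 12591 genes with at least 5 CPM the median log2 fold change was -0.01. A value above 1 was found in 138 genes and one below -1 in 15. At an unadjusted p under 0.05, 336 of them were higher and 403 lower in SeD. Among the 10 genes of smallest unadjusted p short of the call were *Lgmn*, *Stmp1* and *Bscl2*, all above SeS in every SeD library. *Lgmn*, the lysosomal protease legumain, was at 207, 232 and 218 CPM in SeD, against 171, 170 and 168 CPM in SeS (0.37, SE 0.076, adjusted p = 0.628, edgeR). It was called at an adjusted p of 0.00997 when only genes of at least 5 CPM were tested, at 0.0474 with RLE size factors, at 0.00543 with limma's quality weights and at 6.02e-08 with DESeq2, and reached 1.00 in other alternatives. *Stmp1*, a mitochondrial micropeptide, was at 76.7, 74.2 and 62.6 CPM in SeD, against 53.8, 53.7 and 53.3 CPM in SeS (0.41, SE 0.088). It was called by DESeq2 at 0.0441 and by limma at 0.00490, in a range up to 1.00. *Bscl2*, which encodes seipin of lipid droplets, was at 47.3, 44.5 and 35.3 CPM in SeD, against 31.9, 33.3 and 30.002 CPM in SeS (0.41, SE 0.096).

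On the other side of this list, 3 genes lay below SeS in every SeD library. *Zbtb34*, a zinc finger gene, was at 24.04, 27.9 and 25.7 CPM in SeD, against 34.3, 34.7 and 35.3 CPM in SeS (-0.43, SE 0.0997). *Kank3*, known from endothelium, was at 58.7, 66.3 and 56.8 CPM in SeD, against 78.3, 80.4 and 77.9 CPM in SeS (-0.38, SE 0.092). *Kdm5b*, a histone H3 lysine 4 demethylase, was at 63.5, 70.5 and 73.2 CPM in SeD, against 86.8, 92.9 and 91.9 CPM in SeS (-0.39, SE 0.099). The adjusted p of these 3 ran from 0.777 to 0.989 in edgeR. DESeq2 called *Zbtb34*, *Kank3* and *Kdm5b* at 0.0360, 0.00199 and 0.00634, and limma with quality weights at 0.0303, 0.0277 and 0.00722, while other alternatives reached 1.00. *C1ra*, a complement protease, was at 46.5, 48.6 and 72.4 CPM in SeD, against 35.8, 38.1 and 19.9 CPM in SeS (0.84, SE 0.214). *Alg3*, a mannosyltransferase of N-glycan synthesis, was at 25.1 and 24.8 CPM in SeD replicates 1 and 2 and at 12.3 CPM in SeD replicate 3, against 13.2, 11.3 and 12.4 CPM in SeS. Without SeD replicate 3 *Alg3* and *Bscl2* were called, at 0.00378 and 0.0332. Limma with quality weights called these genes and *C1ra* as well.

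**Figure D4:**
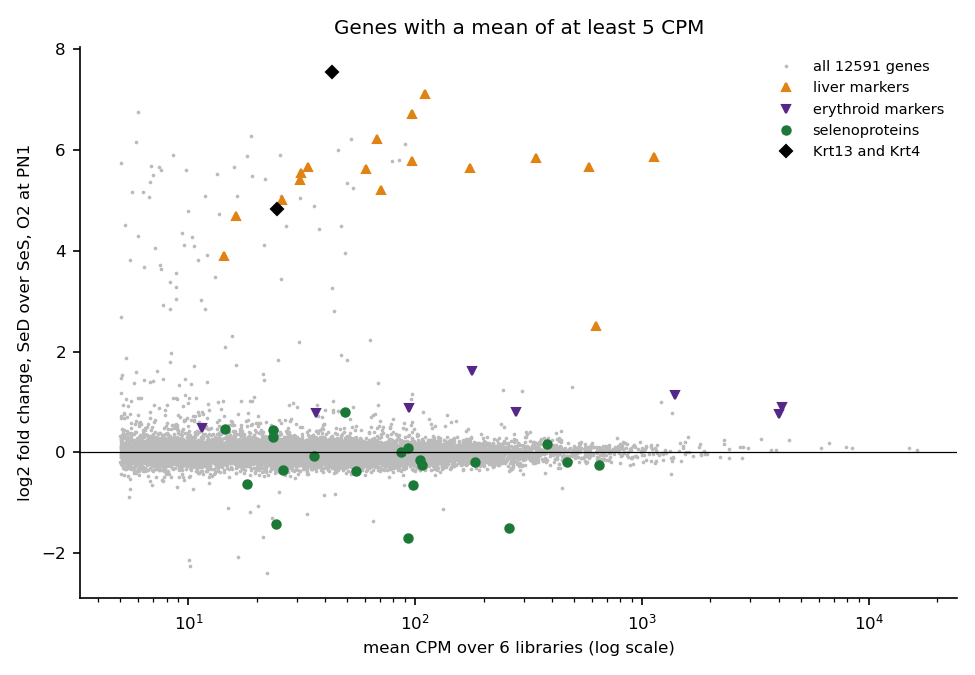
Mean CPM over the 6 libraries (log axis) against the log2 fold change of SeD over SeS for the 12591 genes with at least 5 CPM, with liver markers, erythroid markers, selenoproteins, *Krt13* and *Krt4* marked. Most genes lie near 0, the liver markers lie up to 7.11 and the selenoproteins reach down to -1.70.

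The 12 genes with the highest log2 fold changes at an unadjusted p under 0.05 without overlap were liver transcripts, except *Bmp10*. *Alb* was at 3932, 2614 and 135 CPM in SeD, against 29.2, 28.9 and 57.0 CPM in SeS (5.86, SE 2.24, adjusted p = 0.989, edgeR). *Fga*, *Fgb* and *Fgg*, the chains of fibrinogen, had log2 fold changes of 7.11, 6.73 and 6.23. *Fga* was at 408, 238 and 10.7 CPM in SeD, against 1.01, 1.35 and 2.46 CPM in SeS. *Plg* (plasminogen), *F2* (prothrombin), *Hrg*, *Pzp*, *Fabp1*, *Slc10a1* and *Cyp4a14*, also made in liver, lay between 5.89 and 6.22. All 17 liver markers tested had an unadjusted p under 0.05 and a higher value in SeD, against 2.87% of all genes tested. Their median log2 fold change was 5.64. It was 6.19 without SeD replicate 3 and 1.89 without SeD replicates 1 and 2, when none had such a p. In RA at PN1 the log2 fold change of *Alb* was -5.27, and at PN3 in O2, where 1 SeD library reached 40173 CPM, it was 10.3. The other gene of this rank, *Bmp10*, a ligand of the heart atrium, was at 34.5, 0.252 and 0.743 CPM in SeD, against 0.169, 0.064 and 0.072 CPM in SeS.

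Acute-phase and complement genes were higher in the SeD libraries, including the one with the fewest liver transcripts of the SeD libraries, but none was called. Of 17 tested, 13 had an unadjusted p under 0.05 and a higher value in SeD, against 2.87% of all genes tested, and the median log2 fold change was 1.37. Many of the list are liver genes, and *Fgb* and *Fgg* stand in the liver list as well. *Serpina3n*, a secreted protease inhibitor of the acute phase, was at 60.9, 46.1 and 33.6 CPM in SeD, against 3.10, 5.83 and 4.08 CPM in SeS (3.43, SE 1.01, unadjusted p = 0.00287, adjusted p = 0.989, edgeR). *Saa3*, a serum amyloid A made outside the liver too, was at 6.03, 5.78 and 12.9 CPM in SeD, against 2.06, 4.10 and 3.47 CPM in SeS (1.37, SE 0.404). *C3*, the central complement component, was at 1404, 1377 and 2051 CPM in SeD, against 790, 928 and 687 CPM in SeS (1.01, SE 0.443). *Lbp*, which binds lipopolysaccharide, was at 58.5, 63.9 and 55.8 CPM in SeD, against 34.7, 36.0 and 29.7 CPM in SeS (0.83, SE 0.316). *C4b* was at 9.49, 8.99 and 9.47 CPM in SeD, against 2.90, 2.98 and 4.48 CPM in SeS, and *Steap4* at 19.5, 20.03 and 39.6 CPM in SeD, against 13.9, 12.01 and 11.1 CPM in SeS. Among the SeD libraries, replicate 3 was the highest for *Saa3*, *C3* and *Steap4* and the lowest for *Serpina3n* and *Lbp*. Its liver marker sum was 633 CPM, against 291, 245 and 331 CPM in SeS, and it carried the squamous transcripts given below. The part of liver RNA and of squamous material in these values was not tested. Without SeD replicates 1 and 2 the median was 1.42, with 5 of 17 under an unadjusted p of 0.05, and without SeD replicate 3 it was 1.32, with 10 of 17. *Serpina3n*, *Lbp* and *C4b* were called in the fit of the 12 PN1 libraries, at adjusted p of 0.00494, 0.0429 and 0.0429. Over all alternatives the adjusted p of *Serpina3n* ran from 0.00494 to 1.00. In RA at PN1 the log2 fold change of *Serpina3n* was -0.24 and that of *Saa3* 0.25, and the interaction of diet and gas did not pass for either.

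**Figure D5:**
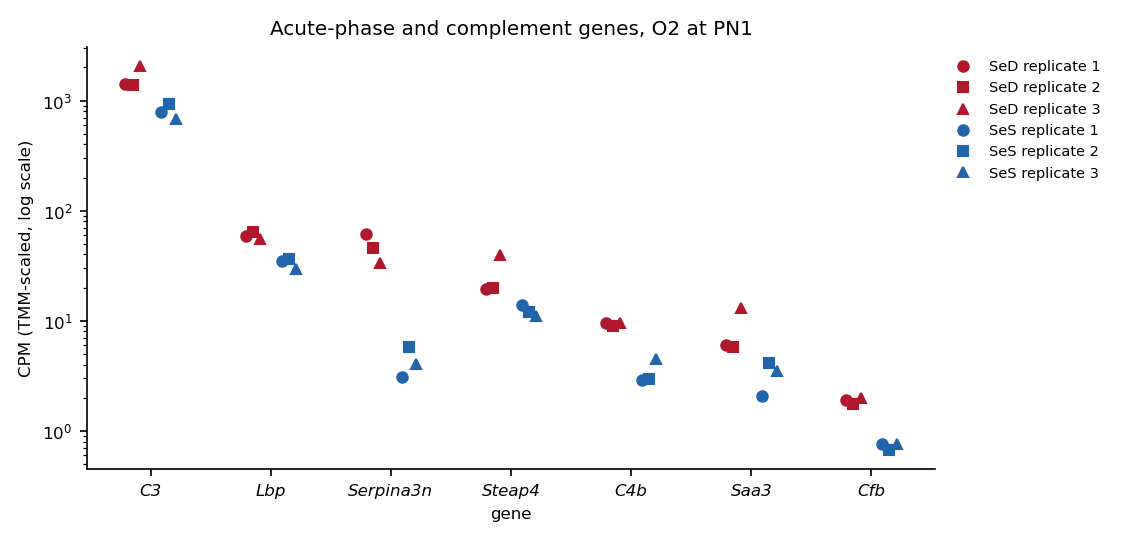
CPM (log axis) of 7 acute-phase and complement genes (*C3*, *Lbp*, *Serpina3n*, *Steap4*, *C4b*, *Saa3* and *Cfb*) in each library of O2 at PN1, SeD in red left of SeS in blue, with a symbol for each replicate number. All 3 SeD libraries lie above all 3 SeS libraries for each gene, from 33.6 CPM and over against 5.83 CPM and under for *Serpina3n* to smaller gaps for *Saa3*.

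Targets of Nrf2, the transcription factor of the antioxidant response, lay slightly higher in SeD, and none was called. Of 32 tested, 5 had an unadjusted p under 0.05 and a higher value in SeD, against 2.87% of all genes tested, and none a lower one, and the median log2 fold change was 0.21. That count was 3 without SeD replicate 3 and 2 without SeS replicate 3. The summed CPM of the list overlapped, at 4850, 4961 and 5583 in SeD, against 5003, 4537 and 4480 in SeS. Of the 29 with at least 5 CPM, 9 had all SeD libraries above SeS, against 5.44% of the 12591 genes, and *Txnrd1* had them below, against 9.95%. *Nqo1*, a quinone reductase often read as a gauge of Nrf2, was at 22.8, 19.7 and 31.5 CPM in SeD, against 17.7, 17.9 and 14.3 CPM in SeS (0.57, SE 0.171, unadjusted p = 0.00324, adjusted p = 0.989, edgeR). *Gstm1*, a glutathione transferase, was at 226, 198 and 154 CPM in SeD, against 152, 147 and 133 CPM in SeS (0.42, SE 0.151). *Srxn1*, which repairs overoxidized peroxiredoxins, was at 26.3, 26.9 and 33.7 CPM in SeD, against 25.1, 20.7 and 19.9 CPM in SeS (0.40, SE 0.155). Among the SeD libraries, replicate 3 was the highest for *Nqo1* and *Srxn1*, and *Gstm1* went with the order of the liver markers. The part of liver RNA and of squamous material in these 3 genes was not tested. *Taldo1*, of the pentose phosphate pathway, differed by 0.21 (SE 0.081). *Gclc*, the catalytic subunit for glutathione synthesis, was at 101, 111 and 133 CPM in SeD, against 104, 102 and 99.0 CPM in SeS (0.17, SE 0.133), and its groups overlapped. In RA at PN1 the log2 fold change of *Nqo1* was -0.03, and its interaction with gas had an unadjusted p of 0.0217. Among 26 genes of the glutathione and thioredoxin systems, 1 (*Srxn1*) had an unadjusted p under 0.05, and *Sod2*, *Sod3* and *Prdx2* differed by 0.17, 0.48 and 0.28.

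SeD replicate 3 carried transcripts of stratified squamous epithelium that the other 5 libraries nearly lacked. *Krt13* was at 0.228, 0.346 and 257 CPM in SeD, against 0.479, 0.480 and 0.397 CPM in SeS, and *Krt4* at 2.05, 1.45 and 139 CPM in SeD, against 1.44, 1.79 and 1.81 CPM in SeS. *Krt5*, of basal cells, was at 10.3 CPM there and at most 0.361 CPM elsewhere, and *Sprr1a*, of the cornified envelope, at 14.7 CPM against at most 1.07 CPM. The chemokine and cytokine list was highest in the same library. Of 20 tested, 8 had an unadjusted p under 0.05 and a higher value in SeD, against 2.87% of all genes tested. Only 1 of the 8, *Il1b*, had at least 5 CPM. *Ccl7*, which draws monocytes, was at 1.37, 1.48 and 5.65 CPM in SeD, against 0.789, 0.737 and 0.975 CPM in SeS, and *Cxcl5*, which draws neutrophils, at 0.783, 1.13 and 10.96 CPM in SeD, against 0.394, 0.737 and 1.05 CPM in SeS. *Il1r2*, a decoy receptor of interleukin 1, was at 2.28, 1.85 and 4.25 CPM in SeD, against 1.24, 0.897 and 1.48 CPM in SeS. Without SeD replicate 3, 2 of the 20 had such a p, and without SeD replicates 1 and 2, 11 had. The part of the squamous material in these values was not tested.

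Transcripts of red blood cells were higher in SeD without a call. The 10 erythroid genes tested summed to 10883, 11951 and 16614 CPM in SeD, against 7257, 4665 and 9496 CPM in SeS, with no overlap. In RA at PN1 they summed to 7737, 8865 and 7164 CPM in SeD, against 8770, 13395 and 12476 CPM in SeS. The sums varied widely within a group, at 14512, 5702 and 4864 CPM in SeS O2 PN3. *Hba-a1*, an alpha globin, was at 5119, 5410 and 5591 CPM in SeD, against 2752, 1890 and 4041 CPM in SeS (0.89, SE 0.407, unadjusted p = 0.0401). *Hba-a1* and *Hba-a2*, and *Hbb-bs* and *Hbb-bt*, are near-identical copies whose reads may be split between them. *Alas2*, the first enzyme of heme synthesis in these cells, was at 302, 380 and 380 CPM in SeD, against 199, 126 and 289 CPM in SeS. The median of the 10 genes was 0.82, and 3 had an unadjusted p under 0.05 and a higher value, against 2.87% of all genes tested. Without SeD replicate 3 the count was 1, and without SeS replicate 3 it was 4. *Mpo*, a granule protein of neutrophil precursors, was at 31.0, 11.8 and 2.48 CPM in SeD, against 1.10, 1.92 and 1.30 CPM in SeS, and *Elane* at 4.92, 2.07 and 0.446 CPM in SeD, against 0.197, 0.320 and 0.181 CPM in SeS. Both went with the order of the liver markers among the SeD libraries. *Ly6g*, of mature neutrophils, was at 3.88, 2.30 and 2.76 CPM in SeD, against 3.27, 5.67 and 4.22 CPM in SeS.

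No gene of the Wnt, Notch and transforming growth factor pathways, which act in lung development, was called. Of 30 Wnt genes tested, 2 had an unadjusted p under 0.05 with a lower and 1 with a higher value in SeD, against 2.02% and 2.87% of all genes tested, and the median log2 fold change was -0.16. Without SeS replicate 3 these counts were 1 and 0, and without SeD replicate 3 they were 3 and 1. Of the 26 with at least 5 CPM, 9 had every SeD library below SeS, against 9.95% of the 12591 genes. *Fzd1*, a Wnt receptor, was at 86.8, 99.1 and 89.7 CPM in SeD, against 119, 122 and 114 CPM in SeS (-0.36, SE 0.127, unadjusted p = 0.00963, adjusted p = 0.989, edgeR). *Lrp6*, a co-receptor, was at 132, 139 and 146 CPM in SeD, against 170, 157 and 166 CPM in SeS (-0.24, SE 0.102). *Wif1*, a secreted Wnt inhibitor, was at 27.4, 34.4 and 25.2 CPM in SeD, against 24.6, 24.7 and 21.6 CPM in SeS (0.29, SE 0.136). *Axin1* and *Axin2*, scaffolds that limit the signal, differed by -0.14 (SE 0.082) and -0.20 (SE 0.160), the receptor *Fzd8* by -0.09 (SE 0.121) and the ligand *Wnt5b* by -0.06 (SE 0.163). *Wnt6* was under 1 CPM in all 6 libraries.

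Of 20 Notch genes tested, 2 had an unadjusted p under 0.05, both with a lower value in SeD, against 2.02% of all genes tested. The median log2 fold change was -0.16. *Jag2*, a ligand, was at 31.0, 34.9 and 26.1 CPM in SeD, against 39.3, 35.7 and 41.1 CPM in SeS (-0.34, SE 0.140). *Notch3* was at 51.2, 61.4 and 40.3 CPM in SeD, against 73.4, 61.9 and 60.9 CPM in SeS (-0.36, SE 0.158), and *Notch1* at 61.0, 69.3 and 57.0 CPM in SeD, against 78.3, 73.6 and 66.9 CPM in SeS (-0.23, SE 0.112). SeD replicate 3 was the lowest library for these 3 genes. *Notch2*, *Jag1* and *Dll1* overlapped between the diets at -0.12, -0.19 and -0.14. Without SeD replicate 3 none of the 20 had such a p with a lower value, and without SeS replicate 3, 3 had. The median was -0.08 without SeD replicate 3, -0.19 without SeS replicate 3 and -0.30 without SeD replicates 1 and 2. Of 23 genes of the transforming growth factor and bone morphogenetic protein pathways, 2 had such a p with a lower and 1 with a higher value in SeD. The shares of all genes tested were 2.02% and 2.87%. The median of the 23 was -0.09, and without SeD replicate 3 the counts of 2 and 1 became 1 and 0. They stayed at 2 and 1 without SeS replicate 3. *Tgfb1* was at 48.1, 51.5 and 46.7 CPM in SeD, against 61.8, 64.2 and 56.0 CPM in SeS (-0.32, SE 0.108), and *Inhba*, an activin subunit, at 11.4, 10.3 and 13.5 CPM in SeD, against 6.87, 7.21 and 8.45 CPM in SeS (0.64, SE 0.230). *Smad7*, an inhibitor of that signal, differed by -0.32 (SE 0.137).

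After the called genes, the lowest log2 fold changes among genes with an unadjusted p under 0.05 and no overlap belonged to *H2-K1* and *Gpd1l*. *H2-K1*, a class I histocompatibility gene, was at 79.4, 85.8 and 84.0 CPM in SeD, against 92.2, 91.5 and 358 CPM in SeS (-1.12, SE 0.518), and *H2-Q4* had a like pattern, with SeS replicate 3, the library with thymus and muscle markers, far above the other 5. *Gpd1l*, a glycerol phosphate dehydrogenase-like enzyme, was at 21.8, 38.2 and 25.3 CPM in SeD, against 43.2, 57.4 and 52.6 CPM in SeS (-0.85, SE 0.256, unadjusted p = 0.00347). *Gpr141*, an orphan receptor, was at 4.63, 5.75 and 5.71 CPM in SeD, against 8.62, 6.08 and 10.7 CPM in SeS (-0.66). *C1qtnf3*, *Lrrc10b* and *Tbx1* lay at -0.68, -0.58 and -0.58, each under 13 CPM in every library. The macrophage gene *Adgre4* was at 7.79, 8.74 and 8.52 CPM in SeD, against 13.1, 10.1 and 12.2 CPM in SeS (-0.50, SE 0.143). Of 13 macrophage markers tested, 1 had an unadjusted p under 0.05 with a lower and 1 with a higher value in SeD. The shares of all genes tested were 2.02% and 2.87%, and the median of the 13 was 0.04.

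In several programs few or no members had a small p, which with 3 libraries a group does not show that the diets were alike. No member of the proliferation (22 genes), unfolded protein response (15), integrated stress response (20), interferon (20), elastic fibre and collagen (25), vascular growth factor (16), alveolar type 2 (12), endothelial (12) or fibroblast (12) lists had an unadjusted p under 0.05. *Calr*, a chaperone and the gene of smallest p in the unfolded protein list, was at 918, 857 and 789 CPM in SeD, against 760, 702 and 643 CPM in SeS (0.28, SE 0.156). Of 22 glycolysis and hypoxia-inducible genes 2 had such a p and a higher value, against 2.87% of all genes tested. They were *Aldoa* at 0.39 (SE 0.117) and the glucose carrier *Slc2a1* at 0.40 (SE 0.135). Without SeS replicate 3 there was 1, and without SeD replicate 3 there were 2. *Igfbp2*, in the alveolar type 1 list and also a fetal liver gene, was at 159, 156 and 85.5 CPM in SeD, against 61.7, 61.5 and 56.2 CPM in SeS (1.16, SE 0.483). *Bbc3*, a p53 target that promotes cell death, was at 15.1, 17.5 and 17.9 CPM in SeD, against 21.4, 24.98 and 20.5 CPM in SeS (-0.40, SE 0.153).

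Whether the diet difference in O2 at PN1 differed from that in RA or at PN3 was tested for every gene. No gene passed for the interaction of diet and gas (0 of 23831, 0%), with 4166 at an unadjusted p under 0.05 in edgeR, and none passed for diet and age (0 of 23831, 0%), with 1379. Of the 4166 genes 695 had a mean of at least 5 CPM, and of the 1379 genes 998 had. The smallest adjusted p were 0.0950 and 0.722. DESeq2 called 1287 genes for diet and gas (97 higher, 1190 lower) and 25 for diet and age, and limma with quality weights called 3260 (553 higher, 2707 lower) and 0. Without SeD RA PN1 replicate 3 edgeR called 2937 genes for diet and gas (89 higher, 2848 lower). The libraries of RA at PN1 were uneven. Olfactory and vomeronasal receptor genes summed to 273, 595 and 27.9 CPM in SeD there, against 25.4, 29.8 and 24.2 CPM in SeS. Genes with a count numbered 33660, 37392 and 28504 in SeD RA PN1, against 27811, 28752 and 27097 in SeS RA PN1. The part of this unevenness in the interaction counts was not tested. Among genes named above, the liver genes had the highest interaction values with gas, *Cyp4a14* at 11.6 and *Fgb* at 11.4 on the log2 scale, and none of them passed.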

How the data were processed

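The authors sequenced stranded poly(A) libraries of whole lung, used Trimmomatic for trimming, HISAT2 for alignment to GRCm39 and featureCounts for counting per gene. The deposited counts are raw whole numbers for 57010 genes in 24 libraries, and symbols came from the deposited annotation. The release of the annotation behind them is not given in the sources used here. The deposited normalized values and the authors' comparison tables (log2 fold changes and p-values from DESeq2) were not used.

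Groups were taken from sample titles. The filter was that of filterByExpr, at a count of 10 and a total of 15. The 8 group means were then fitted with TMM scaling and the quasi-likelihood F-test of edgeR 4.0.16 under R 4.3.3, with Benjamini-Hochberg adjustment over 23831 genes. The common biological coefficient of variation was 0.263. Calls needed an adjusted p under 0.05 together with a log2 fold change above 0.25 in size. The SE is the log2 fold change over the root of F, and fitted values carry a prior count of 0.125. CPM are scaled by TMM. Deposited totals ran from 27715912 to 50437601 reads in the 6 libraries, and genes of few counts carry counting error as well. With 3 libraries against 3 an exact permutation test cannot go below p = 0.1, so none was used. The code was tested on simulated data.

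The genes, the 38 gene lists and the tests were chosen with earlier results of these data known. Named are called genes, the 10 smallest unadjusted p not called, the 12 highest and 12 lowest by log2 fold change of the genes with a symbol, an unadjusted p under 0.05 and no overlap of libraries, all selenoproteins, the 4 members of smallest p of each list described, and lung genes the study names. *C3*, *Lbp*, *C4b*, *Steap4*, *Cfb*, *Hbb-bs*, *Il1b* and the genes named with an alternative were chosen after their values were seen. Replicate numbers did not pair the samples. Selenocysteine codons were read from GENCODE transcripts on GRCm39. Alternatives were DESeq2 1.42.0, limma 3.58.1 with quality weights, a robust spread, RLE size factors, other filters, thresholds and sets of libraries, a replicate block, and libraries left out.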

Additional observations from a re-analysis of the deposited data

How the results depend on the processing

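The count of genes called in SeD O2 PN1 vs SeS O2 PN1 was 3 and stayed between 3 and 4 with a robust spread, RLE size factors (1 higher, *Lgmn*, and 3 lower), no filter, genes of at least 5 CPM only, other thresholds, the library of conflicting labels moved to RA, and both replicates 3 left out together, which was chosen after seeing the data. It was 5 in a fit of the 6 libraries alone (adding *Arg1* and *Serpina3n*), 8 in the 12 PN1 libraries, 19 with DESeq2 (13 higher, 6 lower), 397 with limma's quality weights (284 higher, 113 lower) and 36 without SeD replicates 1 and 2 together (35 higher). Leaving out 1 library at a time gave 3 to 8, with 5 without SeD replicate 2 (adding *Krt13* and *Krt4*) and 8 without SeD replicate 3 (adding *Napa*, *Tcn2*, *Ddx24*, *Alg3* and *Bscl2*). Limma weighted SeD replicate 3 at 0.2775, against 1.54 and 1.49 for SeD replicates 1 and 2. The cause of the differences between these counts was not tested. Over 20 alternatives *Selenow* was called in 20, between -1.81 and -1.63, and *Gpx1* and *Selenoh* in 19 each. For diet by gas interaction at PN1 the counts were 1287 with DESeq2 and 3260 with limma, and 0 to 2937 with 1 library left out. For diet by age interaction in O2 they were 25 with DESeq2, 0 with limma, and 0 with any library left out. With the replicate block 3 genes were called for the diets, 0 for diet and gas and 0 for diet and age, and libraries of the same number did not deviate together (r of -0.081, -0.303 and -0.102 over 12591 genes). Of 3886 values of 196 other named genes under the alternatives, 3581 stayed on their side of the threshold and within their spread, 250 moved, 55 came to pass the test and 0 changed direction as calls. Genes of a few CPM are limited by counts, and 3 libraries a group limit the rest.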
